A study of Mus musculus with 18 samples.

Results

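TET1 has a catalytic function, the oxidation of methylated cytosine, and functions that do not need it, and a Tet1 knockout loses both while a catalytically inactive protein loses only the first. The comparison described here set the 3 H3K4me3 samples of Tet1 knockout prospermatogonia (KO) against the 3 H3K4me3 samples of prospermatogonia with the catalytic-dead HxD allele. These 6 samples of the 18 in the series were chosen by their genotype and antibody labels, and the question was what loss of the protein adds to loss of its catalysis. The KO cells were Tet1-/-, the HxD cells were homozygous (Tet1HxD/HxD), and 3 wild-type samples (WT, Tet1+/+) with the same antibody served only as a reference. The HxD motif is the part of the TET catalytic domain that holds its iron. The cells of every group were mouse prospermatogonia, sorted as Oct4-GFP+ at E17.5 and stored frozen, so all groups also carried the Oct4-GFP reporter. CUT&RUN, in which an antibody guides a nuclease that releases the chromatin around a mark, was run on 4000 nuclei per sample. The labels give 3 biological replicates per genotype, without naming animals or litters, so p-values measure the spread between these samples. All samples had 1 batch label, and the 9 IgG samples were not used here.

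H3K4me3 is a histone mark of gene starts. It is laid down by the SET1 and MLL (KMT2) enzymes and removed by KDM5 demethylases, and it sits mainly on promoters rich in CpG dinucleotides, whether the gene is active or held ready next to Polycomb marks. The unmethylated tail of histone H3 recruits and activates DNMT3A, DNMT3B and DNMT3L, and methylation at H3K4 blocks that contact, so the mark and the gain of DNA methylation tend to exclude each other. In fetal male germ cells this matters because prospermatogonia regain DNA methylation over most of the genome before birth. TET1 is also known to bind the SIN3A, HDAC and OGT proteins and to occupy Polycomb target promoters in stem cells.

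Peaks were measured as the authors' MACS2 lists gave them, 1 list per sample. KO replicates 1, 2 and 3 had 71949, 80232 and 69901 peaks on chromosomes 1 to 19, X and Y, and HxD replicates 1, 2 and 3 had 67925, 49624 and 62247. Because a longer list marks more of everything, each list was reduced to its 49624 peaks of highest −log10 q, the length of the shortest list. The weakest peak kept then had a −log10 q of 3.96, 9.13 and 6.13 in KO and 6.99, 2.01 and 5.52 in HxD, so the lists are equal in number and not in stringency. Read depth is not known from these files. KO replicate 1 (42.5 Mb in peaks) and HxD replicate 2 (45.6 Mb) covered the least, against 59.6 and 61.5 Mb in the other KO and 60.3 and 47.9 Mb in the other HxD samples. Prospermatogonia markers (Ddx4, Dazl, Nanos2 and others) had promoter peaks for 8 to 12 of 12 genes in KO and 9 to 11 in HxD. In WT the number was 6 to 9, and none of the 12 was at 0 in all 9 samples. The counts for 15 Sertoli markers were 11 to 14 in KO, 11 to 13 in HxD and 10 to 11 in WT. Those for 17 Leydig and interstitial genes were 8 to 11, 9 to 11 and 9 to 11 in the same order. For 16 endothelial and blood genes they were 5 to 8, 7 and 5 to 8. H3K4me3 also lies on silent CpG-rich promoters, so these counts do not measure expression. Summed breadth of the other marker lists was 29.1 to 42.5 kb in KO and 29.4 to 43.1 kb in HxD for 15 Sertoli genes, 17.3 to 34.4 and 25.7 to 31.8 kb for 17 Leydig and interstitial genes, and 11.8 to 19.4 and 15.9 to 17.7 kb for 16 endothelial and blood genes. Without a promoter peak in any of the 9 samples were Star, Cyp17a1, Hsd3b1, Col3a1, Dcn and Lum of the Leydig and interstitial list, Pecam1, Tie1, Ptprc, Adgre1, Csf1r, Lyz2 and Hba-a1 of the endothelial and blood list, and Ptgds of the Sertoli list.

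By the whole-sample measures tested on lists of equal length KO and HxD could not be separated. The number of regions inside genes was not among these tests. It was higher in every KO sample at this list length and is given with the other observations. A promoter was the 1 kb on either side of a coding gene's start, and of 21887 coding genes 14175, 14755 and 14981 had a promoter peak in KO replicates 1, 2 and 3, and 14794, 14829 and 14310 in HxD replicates 1, 2 and 3. The means were 14637 ± 416 and 14644 ± 290.1 genes (SD, n = 3 each; difference −7.33, two-sided exact permutation p = 1). The 9 differences between a KO and an HxD sample ran from −654 to 671 genes, an interval of 90% coverage for a common shift. KO replicate 1 and HxD replicate 3 were the low samples, and the groups overlapped. Without KO replicate 1 the difference was 224 genes, with KO higher.

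Promoters held 17.54, 21.7 and 23.4 Mb of peaks in KO and 21.97, 19.5 and 18.0 Mb in HxD. KO had 1.08 Mb more on average, with sample differences from −4.42 to 5.44 Mb (exact permutation p = 0.8). Away from promoters the peaks covered 25.0, 37.8 and 38.1 Mb in KO and 38.3, 26.1 and 29.9 Mb in HxD, a difference of 2.16 Mb with a range of −13.4 to 11.9 Mb (exact permutation p = 1). In each genotype the covered length differed between replicates by more than the genotypes differed from each other. Both differences turned negative without KO replicate 3, to −0.183 and −0.0565 Mb, and that away from promoters also without HxD replicate 2 (−0.516 Mb). The share of the covered length that lay at promoters was 41.3%, 36.5% and 38.1% in KO and 36.4%, 42.7% and 37.5% in HxD. It was highest in the 2 samples of least covered length, KO replicate 1 and HxD replicate 2.

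Peak strength was compared as a rank, since fold values depend on depth. Each peak's fold enrichment, the authors' ratio at the summit, was turned into its percentile within its own list, from 0 for the weakest to 100 for the strongest. The median promoter peak stood at 78.1, 79.6 and 82.3 in KO and at 78.4, 79.6 and 71.9 in HxD, against 38.6 to 42.4 and 39.3 to 43.1 for peaks elsewhere. The KO mean was 3.38 points higher, with sample differences from −1.44 to 10.4 (exact permutation p = 0.5). With the full lists, which differ in length, it was 6.13 points higher (exact permutation p = 0.1, the smallest possible). Without HxD replicate 3 the cut lists gave 1.02 points. In the cut lists of all 6 samples the groups overlapped. HxD replicate 3 alone lay below all KO samples.

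Nearly all WT promoter regions had a peak in both mutants. Of 8746 promoter regions with a peak in every WT sample, 94.2%, 97.0% and 97.6% had a peak in KO and 97.2%, 97.7% and 95.6% in HxD (difference −0.541 points, range −3.48 to 2.04; exact permutation p = 0.6). Without KO replicate 1 the difference was 0.499 points. Away from promoters less was retained in both mutants. Of 17790 such WT regions, 60.3%, 74.8% and 69.7% had a peak in KO and 77.1%, 71.0% and 76.0% in HxD. The mean difference, KO minus HxD, was −6.42 points, with sample differences from −16.8 to 3.82 points (exact permutation p = 0.2). This mean difference was below 0 in every alternative run, but its size varied. It was −1.73 points with full lists, −14.1 at equal covered length and −9.70 without KO replicate 2. KO replicates 1 and 3 lay below every HxD sample and KO replicate 2 lay among them. In all 10 such single values were tested, none with a Benjamini-Hochberg adjusted p below 1, and 3 samples against 3 cannot go below a p of 0.1.

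**Figure D1:**
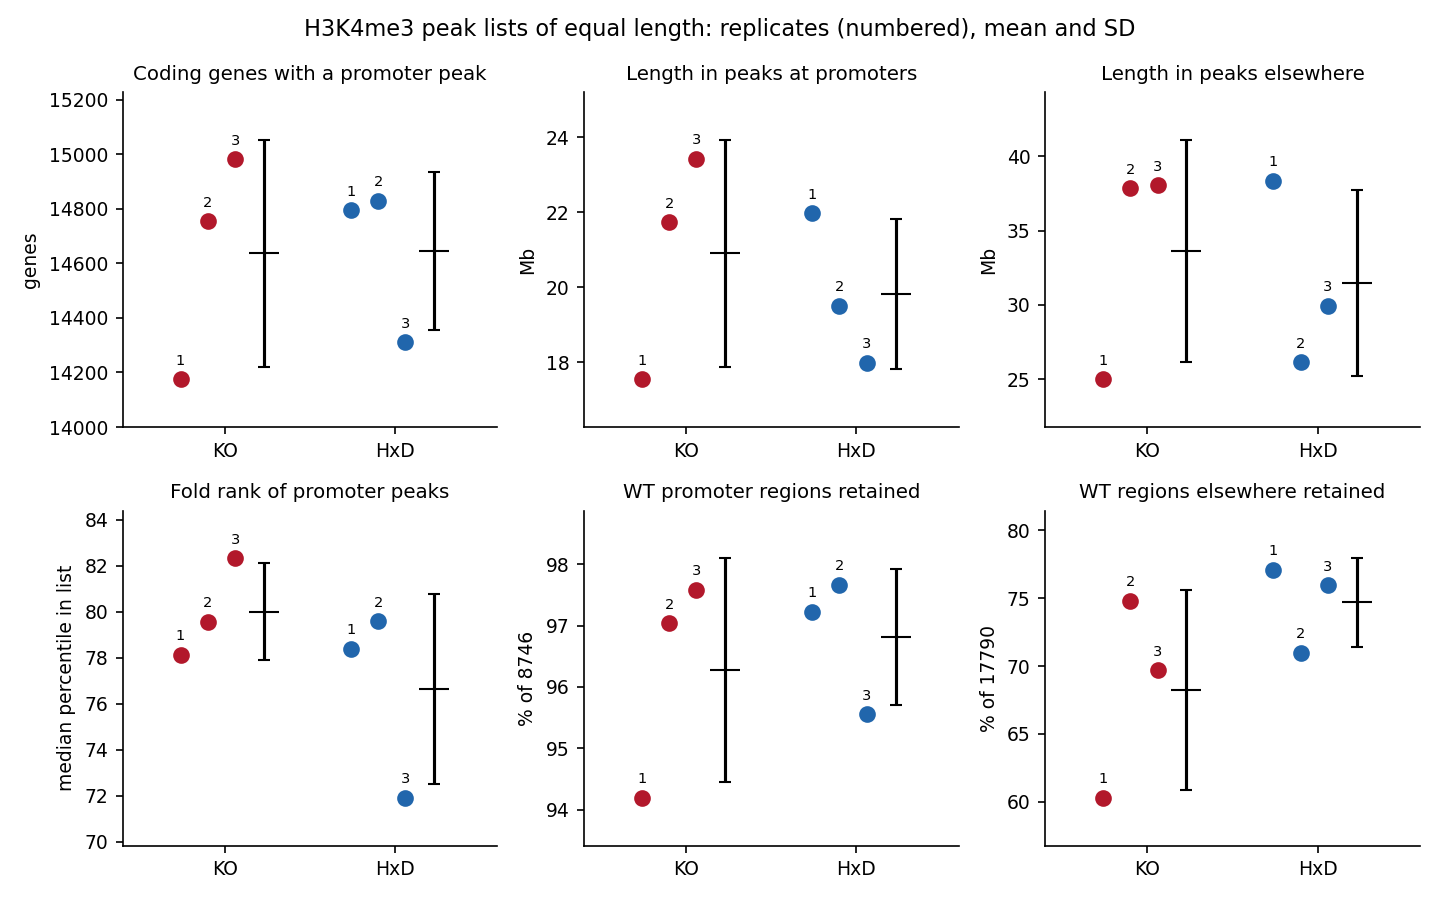
Measures of the peak lists cut to 49624 peaks, for KO (red) and HxD (blue), with numbered points for replicates and bars for the mean and SD (n = 3). The groups overlap in all 6 panels, and KO replicate 1 is the lowest sample in 5 of them.

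The likeness of peak positions overlapped between pairs of one genotype and pairs across genotypes. Likeness was the Jaccard index, the bp covered in both lists divided by the bp covered in either. It averaged 0.4796 over the 3 pairs of KO samples, 0.510 over the 3 pairs of HxD samples and 0.498 over the 9 pairs of a KO with an HxD sample. Within-genotype pairs together averaged 0.495, so that the difference from pairs across genotypes was −0.00361 (one-sided exact permutation p = 0.6). KO replicates 2 and 3 had an index of 0.563 with each other and of 0.571 and 0.567 with HxD replicate 1, their closest sample. KO replicate 1 was closest to HxD replicate 2 (0.454), the other sample of low covered length. Pairs of a KO with a WT sample averaged 0.407, pairs of an HxD with a WT sample 0.433 and pairs of WT samples 0.460.

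**Figure D2:**
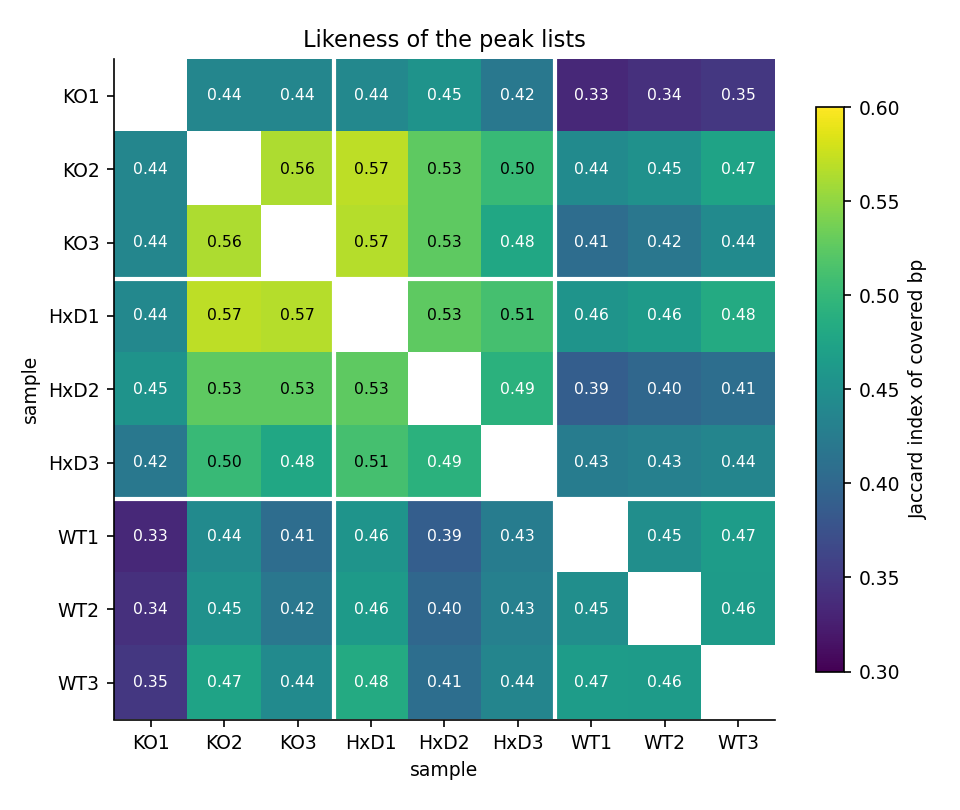
Jaccard index of covered bp (colour and number) for every pair of the 9 H3K4me3 samples, with white lines between genotypes. The highest values join KO replicates 2 and 3 with HxD replicate 1 (0.57), and the row of KO replicate 1 is low against all samples, with 0.45 at most.

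Few promoters carried a peak in all samples of one genotype and in none of the other. Among the 15861 coding genes marked in 1 or more of the 6 samples, 10 were marked in every KO and no HxD sample (0.0630%) and 23 in every HxD and no KO sample (0.145%), while 12576 were marked in all 6. With the full deposited lists the counts were 19 and 8, so the direction of the excess depended on the list length. Without KO replicates 1, 2 and 3 in turn the 10 became 34, 34 and 25, and without HxD replicates 1, 2 and 3 it became 50, 58 and 23. The 23 became 35, 65 and 79, and 34, 46 and 45, as fewer samples then had to be alike. Leaving out KO replicate 1 and HxD replicate 2 together gave 117 and 76.

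The broadest of these promoters were of both CpG-rich and CpG-poor kinds. The 300 bases of RefSeq sequence (GRCm38.p6) around the start are shown for 4 of them, 1 of each kind in each direction, because CpG content sets where H3K4me3 forms. The CpGs are in capitals, and each sequence reads in the direction of the gene. That of Nxf2 covers chrX:134963848-134964147 (minus strand), with 17 CpGs. That of Cer1 covers chr4:82885102-82885401 (minus strand), with 6 CpGs. That of Marchf10 covers chr11:105456686-105456985 (minus strand), with 22 CpGs. That of Cryaa covers chr17:31677681-31677980 (plus strand), with 7 CpGs.
Nxf2: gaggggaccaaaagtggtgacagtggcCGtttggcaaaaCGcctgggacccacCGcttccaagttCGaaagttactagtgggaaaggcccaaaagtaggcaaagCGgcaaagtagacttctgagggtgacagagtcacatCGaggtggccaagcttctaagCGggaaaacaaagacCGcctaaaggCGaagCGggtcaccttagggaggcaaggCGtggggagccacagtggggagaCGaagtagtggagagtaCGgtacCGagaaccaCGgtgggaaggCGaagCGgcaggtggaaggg
Cer1: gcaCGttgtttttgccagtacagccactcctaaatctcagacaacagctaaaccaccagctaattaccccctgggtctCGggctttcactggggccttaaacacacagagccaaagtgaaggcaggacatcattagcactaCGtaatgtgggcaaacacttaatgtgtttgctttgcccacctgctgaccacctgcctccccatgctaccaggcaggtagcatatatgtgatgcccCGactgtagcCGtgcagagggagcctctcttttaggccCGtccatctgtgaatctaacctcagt
Marchf10: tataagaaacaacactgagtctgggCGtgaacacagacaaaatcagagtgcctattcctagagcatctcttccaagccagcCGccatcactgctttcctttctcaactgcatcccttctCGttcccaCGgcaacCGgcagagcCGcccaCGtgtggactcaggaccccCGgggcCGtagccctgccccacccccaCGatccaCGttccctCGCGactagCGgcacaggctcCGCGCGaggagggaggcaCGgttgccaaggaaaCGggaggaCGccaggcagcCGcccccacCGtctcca
Cryaa: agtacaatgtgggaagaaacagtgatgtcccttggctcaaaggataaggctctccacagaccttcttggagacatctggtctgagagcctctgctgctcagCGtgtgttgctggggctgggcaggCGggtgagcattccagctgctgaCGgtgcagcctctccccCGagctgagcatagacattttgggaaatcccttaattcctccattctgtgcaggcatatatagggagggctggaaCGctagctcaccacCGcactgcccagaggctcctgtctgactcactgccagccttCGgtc

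Nxf2 (chromosome X, 134944526 to 134964754) encodes an mRNA export factor made mainly in germ cells. Within 1 kb of its start peaks covered 703, 1569 and 1584 bp in KO replicates 1, 2 and 3, and 0 bp in all 3 HxD and all 3 WT samples. It was the longest KO-marked promoter of this kind, and its start is CpG-rich (observed over expected CpG 0.753). Its KO peaks were of unequal strength, at fold percentiles of 75.5, 27.9 and 31.5.

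Cer1 (chromosome 4, 82881751 to 82885151) encodes a secreted antagonist of Nodal, BMP and Wnt signals. Its CpG-poor promoter (observed over expected 0.308) had 1072, 1063 and 671 bp in KO, 0 in all HxD samples and 1166, 0 and 1279 bp in WT. WT was thus marked in 2 of 3 samples. The predicted genes Gm9257 (521, 1449 and 846 bp in KO) and LOC108167368 (1286, 616 and 714 bp), both on chromosome 12, and Psg16, a pregnancy-specific glycoprotein (318, 1149 and 722 bp), completed the 5 of largest covered length.

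In the other direction Marchf10 (chromosome 11, 105360798 to 105457701), a RING-CH ubiquitin ligase, led with 1118, 748 and 772 bp in HxD replicates 1, 2 and 3 and 0 bp in all KO samples. WT had 0, 1409 and 1237 bp. Tbx5 (chromosome 5, 119796514 to 119885220), a T-box factor of the heart and forelimb, had 683, 683 and 913 bp in HxD, 0 in KO, and 1165, 1182 and 1170 bp in WT. It was marked in every HxD and every WT sample, and its start was taken as a gene end. Cryaa, a lens crystallin, had 1491, 264 and 485 bp in HxD, Slco6d1, an organic anion transporter, 735, 529 and 806 bp, and the predicted gene Gm15501 1161, 329 and 501 bp, each with 0 bp in every KO sample.

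The 2 sets differed in the kind of promoter, as a description of few genes. Of the 19 HxD-marked promoters with a RefSeq sequence 16 were CpG-poor (observed over expected under 0.48) and 1 CpG-rich, and 3 of the 23 genes were olfactory receptors (Olfr796, Olfr884 and Olfr959). Of the 6 KO-marked ones with a sequence 3 were CpG-poor and 2 CpG-rich. Of 12587 promoters with a sequence and a peak in at least 1 sample 20.7% were CpG-poor and 44.0% CpG-rich. All 23 HxD-marked promoters had a peak in at least 1 WT sample, and 6 in all 3. Of the 10 KO-marked ones 3 had no peak in WT (Nxf2, LOC108167368 and Tjp3) and 1 had a peak in every WT sample (Hjv, the iron regulator hemojuvelin). Tjp3, Hjv and the olfactory receptors were named after their values were seen.

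The length of the mark at promoters was tested gene by gene. Breadth was the number of bp in peaks within 5 kb of the start, for 15384 genes with at least 500 bp on average over the 6 samples. Limma called no promoter broader or narrower in KO at an adjusted p under 0.05 (0 of 15384, 0%; smallest adjusted p = 0.999). At an unadjusted p under 0.05 there were 378 higher and 48 lower in KO. The median difference, KO minus HxD, was 155 bp, and the median half-width of the 95% interval was 817 bp, so the data could not resolve differences below that size at a typical promoter. The excess of broader promoters in KO differed with the sample left out. Of all tested promoters 69.0% were higher in KO, and 48.4% were after each sample was centred on its mean, with 328 higher and 351 lower at an unadjusted p under 0.05 and a median of −12.2 bp, since centring removes a shift common to all genes. Without KO replicate 1 the unadjusted counts were 1153 higher and 32 lower, without KO replicate 2 they were 230 and 87, and without KO replicate 3 they were 138 and 175. Without HxD replicates 1, 2 and 3 they were 668 and 18, 273 and 76, and 153 and 38.

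**Figure D3:**
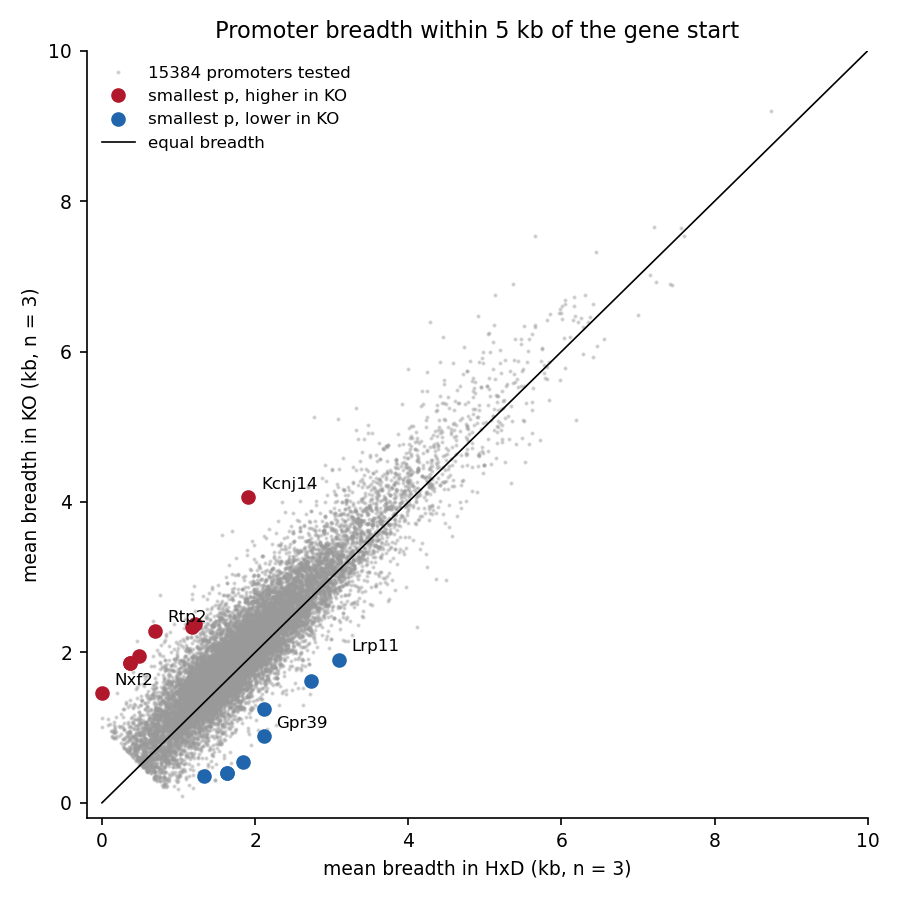
Mean promoter breadth (kb within 5 kb of the start) of 15384 genes in HxD (horizontal) and KO (vertical), n = 3 each, with the 8 genes of smallest unadjusted p in each direction in red (higher in KO) and blue (lower in KO). Most promoters lie near or somewhat above the line of equal breadth, and none of the coloured genes passed the adjusted test.

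In 999 promoters every KO sample was broader than every HxD sample (6.49%) and in 140 every KO sample was narrower (0.910%). The genes described next have the smallest p among these, and every one had an adjusted p of 0.999 by limma. They are examples of the widest separations and not called changes. Rtp2 (chromosome 16, 23925548 to 23930794), a chaperone of odorant receptors, had 1728, 2866 and 2266 bp in KO and 926, 501 and 636 bp in HxD, and 2645, 1085 and 1930 bp in WT. The difference was 1599 ± 337 bp (SE) with a 95% interval of 846 to 2352 bp. All 3 WT samples lay above all 3 HxD samples there.

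Nxf2, described above, had 1018, 1569 and 1791 bp within 5 kb in KO and 0 bp in the 6 other samples (difference 1459 ± 321 bp, SE). Fbxo21 (chromosome 5, 117976770 to 118010198), the substrate adaptor of a ubiquitin ligase, had 1815, 1639 and 2416 bp in KO, 0, 737 and 713 bp in HxD and 0, 1228 and 2338 bp in WT. Inpp5f (chromosome 7, 128611181 to 128696436), an inositol phosphatase with an imprinted transcript, had 2352, 2457 and 2210 bp in KO and 1287, 1443 and 801 bp in HxD. WT, at 1413, 2195 and 2179 bp, overlapped both. Hnrnph2, an RNA-binding protein, and its neighbour Gla, the lysosomal α-galactosidase, share 1 stretch of chromosome X and so gave the same values, 1366, 1587 and 2616 bp in KO, 421, 662 and 0 bp in HxD and 374, 0 and 0 bp in WT. The WT samples were low over chromosome X as a whole, with medians of 0, 0 and 273 bp over its 476 tested promoters, and the part of this in the WT values at Nxf2 and in this stretch was not tested.

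Kcnj14 (chromosome 7, 45816467 to 45824747), a potassium channel, had the largest difference of the 8. It had 3692, 4074 and 4415 bp in KO, 3199, 1568 and 973 bp in HxD and 1672, 1175 and 1526 bp in WT (difference 2147 ± 554 bp, SE). HxD replicate 1 came near the KO samples. Atp9b, a P4-type ATPase, had 2225, 2503 and 2418 bp in KO and 1690, 1021 and 940 bp in HxD. For both genes the start was taken as a gene end.

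Of the promoters that were narrower in KO, Gpr39 (chromosome 1, 125676996 to 125873862), a zinc-sensing receptor, had 332, 1030 and 1306 bp in KO and 2325, 2009 and 1995 bp in HxD (difference −1220 ± 320 bp, SE). The WT samples were spread over both, at 1174, 736 and 3356 bp. Avpr1b, a vasopressin receptor, had 315, 0 and 1321 bp in KO and 1569, 1864 and 2075 bp in HxD. Bhlha9 (chromosome 11, 76672470 to 76673676), a transcription factor of limb development, had 1992, 1360 and 1526 bp in KO, 2888, 2340 and 2963 bp in HxD and 2861, 2955 and 2051 bp in WT. All WT samples were above all KO samples there. Gstt1, a glutathione transferase, showed the same order, at 1133, 1269 and 1333 bp in KO, 2461, 1929 and 1969 bp in HxD and 1913, 2024 and 2028 bp in WT.

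Lrp11, of the LDL receptor family, had 1566, 1773 and 2374 bp in KO and 3536, 2613 and 3142 bp in HxD. Syna, the placental fusion protein syncytin-A, had 393, 677 and 0 bp in KO and 1269, 1573 and 1174 bp in HxD. The defence peptide gene Defb14 and its neighbour Spag11a shared 1 stretch, with 0, 0 and 1183 bp in KO and 1492, 1252 and 2150 bp in HxD. All KO samples lay below all HxD samples at these starts, which is how they were chosen.

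**Figure D4:**
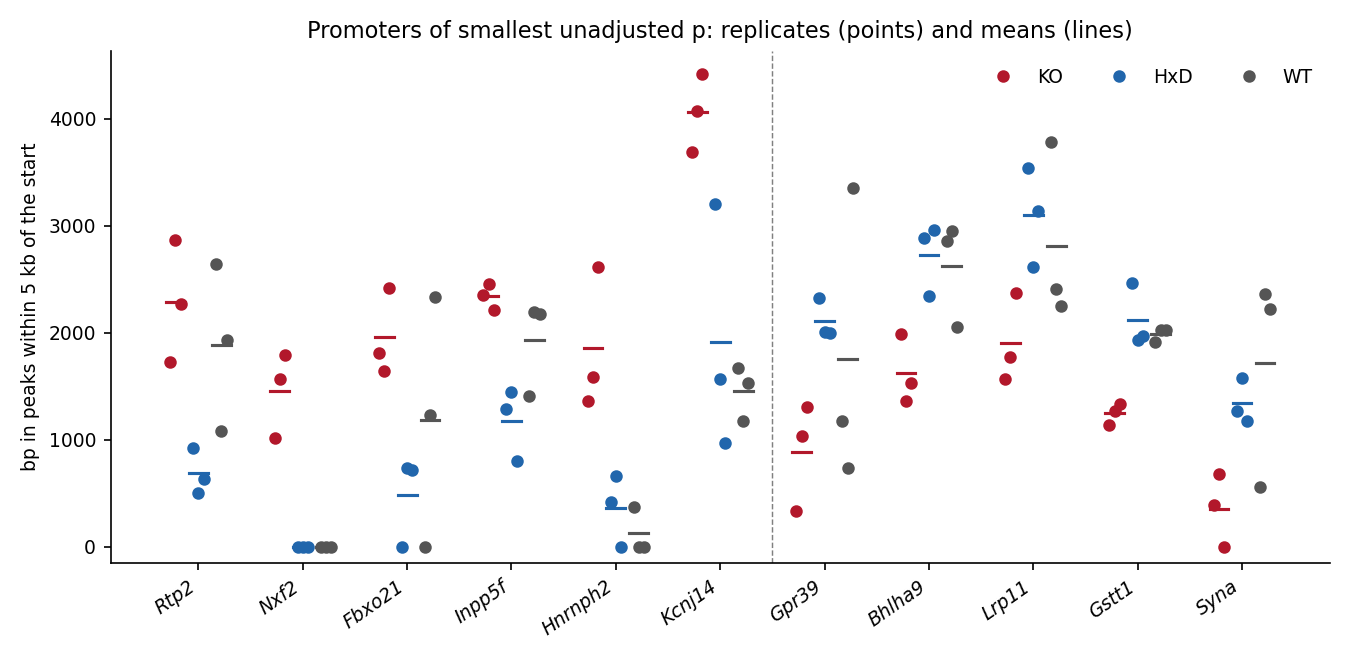
Breadth within 5 kb of the start (bp) in each KO, HxD and WT sample (points; lines are means, n = 3) for promoters among those with the smallest unadjusted p (Gla, Atp9b, Avpr1b, Spag11a and Defb14 are not drawn), higher in KO on the left of the dashed line and lower on the right. Nxf2 is at 0 in all HxD and WT samples, while at Gstt1 the WT samples lie with HxD.

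Promoter classes by CpG content also overlapped between the genotypes. CpG-rich promoters (observed over expected at least 0.75 with GC of at least 0.55; 5563 genes) had a mean breadth of 1931, 2364 and 2705 bp in KO and 2404, 2086 and 1891 bp in HxD (difference 206 bp, range −473 to 814; exact permutation p = 0.6). CpG-poor promoters (7349 genes) had 427, 606 and 630.2 bp in KO and 617, 480.1 and 489 bp in HxD (difference 25.8 bp, range −190 to 150.1; exact permutation p = 0.9). The 4580 promoters between these limits had 1605, 2050.1 and 2319 bp in KO and 2076, 1756 and 1639 bp in HxD (exact permutation p = 0.7). In all 3 classes the broadest promoters were in KO replicates 2 and 3 and HxD replicate 1, the 3 samples of most covered length.

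Peak strength at single promoters was tested as the fold percentile of the strongest peak within 1 kb, for 12579 genes with such a peak in all 6 samples. Limma called none (0 of 12579, 0%; smallest adjusted p = 0.859), with 167 higher and 108 lower in KO at an unadjusted p under 0.05. The groups did not overlap, with KO higher, at 769 promoters (6.11%) and, with KO lower, at 526 (4.18%). The unadjusted counts leaned to lower without any 1 KO sample and to higher without any 1 HxD sample. Without KO replicates 1, 2 and 3 they were 41 higher and 226 lower, 42 and 235, and 33 and 295. Without HxD replicates 1, 2 and 3 they were 388 and 27, 454 and 43, and 331 and 31. The median difference, 2.28 points with all 6 samples, did not turn in this way. It was 3.76, 4.03 and 2.16 points without KO replicates 1, 2 and 3. Without HxD replicates 1, 2 and 3 it was 1.18, 2.15 and −0.551 points.

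Clta (chromosome 4, 44003816 to 44032846), the clathrin light chain A, stood at percentiles of 97.6, 96.7 and 98.8 in KO and 11.2, 37.2 and 0.315 in HxD, and at 70.9, 86.9 and 49.4 in WT (difference 81.4 ± 24.8 points, SE; limma adjusted p = 0.859). By the percentile of −log10 q instead, its HxD values were 60.2, 60.4 and 2.65, so 2 of the 3 HxD samples were of middle strength by that measure. Gpr155, an integral membrane protein, stood at 96.2, 94.5 and 96.6 in KO and 28.4, 1.02 and 18.2 in HxD by fold, and at 95.5, 95.1 and 94.9 against 52.6, 35.8 and 50.2 by −log10 q. Mapre3, the microtubule end-binding protein EB3, stood at 92.3, 82.1 and 87.3 in KO and 6.55, 14.4 and 0.386 in HxD. At all 16 promoters described for their fold percentile, the gap between the group means was smaller by −log10 q.

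Lpcat1, a phospholipid acyltransferase of lung surfactant, stood at 95.6, 91.5 and 93.4 in KO and 17.53, 6.30 and 18.2 in HxD. Oxtr, the oxytocin receptor, stood at 85.3, 84.2 and 87.7 in KO and 9.23, 8.15 and 12.1 in HxD, and Slc25a20, the mitochondrial carnitine carrier, at 84.9, 83.7 and 87.0 and 1.61, 25.5 and 16.5. The start shared by Phtf2 and Tmem60 stood at 83.6, 99.9 and 99.1 in KO and 0.212, 50.9 and 2.76 in HxD. HxD replicate 2 was the HxD sample nearest to KO at Clta, Mapre3, Slc25a20 and that start.

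In the other direction Rbm11, a splicing regulator, stood at 0.181, 1.36 and 1.76 in KO, 77.0, 61.5 and 70.3 in HxD and 80.1, 83.1 and 91.1 in WT (difference −68.5 ± 22.9 points, SE; limma adjusted p = 0.859). All WT samples lay above all HxD samples there. Sspn, the muscle membrane protein sarcospan, stood at 8.13, 12.3 and 3.78 in KO and 85.9, 87.1 and 79.0 in HxD, and Nmu, the peptide neuromedin U, at 8.94, 25.1 and 3.91 and 89.1, 72.5 and 95.7. Osbpl1a, an oxysterol-binding protein, stood at 1.46, 14.4 and 0.0584 in KO and 82.5, 84.5 and 95.9 in HxD. Cryge, a lens crystallin, Mpv17l2, a mitochondrial protein, Eci2, of fatty acid oxidation, and Mboat2, an acyltransferase, completed the 8, with KO means between 3.84 and 26.8 and HxD means between 73.6 and 97.6.

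In breadth the TET and DNMT promoters overlapped between the genotypes for 8 of the 9 measured genes. By fold percentile the groups did not overlap for Dnmt3b, 1 of 9 genes, beside 6.11% of all promoters with KO higher. It stood at 98.4, 95.7 and 99.6 in KO and 94.3, 95.1 and 60.5 in HxD (limma adjusted p = 0.859). Tet1 (chromosome 10, 62804570 to 62887469), the gene altered in both, had promoter breadths of 2732, 3331 and 3623 bp in KO and 3495, 3260 and 2580 bp in HxD. The difference was 117 ± 419.9 bp (SE; 95% interval −821 to 1055; limma adjusted p = 0.999). The start of a gene can keep its mark when its coding sequence is altered, and for that reason the values are no check of genotype. The fold percentile of its strongest promoter peak was 74.0, 95.4 and 99.9 in KO and 99.8, 100.0 and 98.8 in HxD (difference −9.76 points; limma adjusted p = 0.859). Among the HxD samples it was near the top of each list, and KO replicate 3 lay within their range.

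Of the other dioxygenases Tet2 had 2062, 2968 and 3160 bp in KO and 3038, 2669 and 1861 bp in HxD, and Tet3 891, 1671 and 1477 bp and 1261, 1047 and 1433 bp. Tdg, the glycosylase that removes oxidised methylcytosine, had 2326, 2083 and 2396 bp in KO and 2021, 1706 and 1718 bp in HxD. It was the 1 of 9 whose groups did not overlap in breadth, beside 6.49% of all promoters with KO higher (difference 453 ± 283 bp, SE; 95% interval −178 to 1085). Among the methyltransferases Dnmt3a, which writes methylation in the fetal male germline, had 3152, 3055 and 3756 bp in KO and 3301, 2507 and 2831 bp in HxD, and Dnmt3l, its cofactor, 829, 1055 and 1241 bp and 451, 498 and 1066 bp. Dnmt3b (difference 382 ± 357 bp, SE), Dnmt1, which maintains methylation (313 ± 388 bp), and its partner Uhrf1 (55.7 ± 388 bp) overlapped between the genotypes in breadth. All 9 mean differences were above 0, with a median of 313 bp, beside 155 bp and 69.0% above 0 over all tested genes. Those of Tet1, Tet3 and Uhrf1 were smaller than the shift that centring removes from every gene, and fell below 0 with it.

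Genes of the proteins that TET1 binds were described next, from a list of 16 SIN3, HDAC, OGT and NuRD components. Of these 14 were higher in KO and 2 lower (87.5% higher, beside 69.0% of all tested genes), with a median of 483 bp beside 155 bp. None passed the test, and the groups did not overlap, with KO higher, for Rbbp7 and Arid4b (2 of 16, beside 6.49% of all genes). Rbbp7, a histone-binding subunit of these complexes on chromosome X, had 2546, 2595 and 3176 bp in KO and 0, 1867 and 1667 bp in HxD (difference 1594 ± 479 bp, SE). Mta2, a NuRD subunit, had 1601, 3438 and 4008 bp in KO and 2981, 1645 and 2093 bp in HxD. Sin3a, the scaffold of the SIN3 complex, had 2785, 5923 and 6550 bp in KO and 6683, 6359 and 5545 bp in HxD, so that its lower KO mean came from KO replicate 1, and without that sample the difference was 40.8 bp. The NuRD subunit Mbd3 had 1293, 3595 and 2455 bp in KO and 3313, 2973 and 1729 bp in HxD, with a difference of −224 bp that was 353 bp without KO replicate 1 and 96.7 bp without HxD replicate 1.

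Of 18 measured enzymes and subunits that write or remove H3K4 methylation, 16 were higher in KO and 2 lower (median 397 bp). That is 88.9% higher, beside 69.0% and a median of 155 bp over all tested promoters. None passed the test and 4 did not overlap (Kmt2a, Kmt2b, Kmt2d and Rbbp5), all with KO higher, beside 6.49% of all tested promoters. Kmt2d, an MLL-family methyltransferase best known at enhancers, had 3163, 2973 and 4288 bp in KO and 2128, 2238 and 1525 bp in HxD (difference 1511 ± 431 bp, SE). WT, at 2082, 976 and 0 bp, lay below KO. Kdm5c, an X-linked demethylase, had 1068, 1597 and 2570 bp in KO and 1380, 1010 and 948 bp in HxD. Setd1a, a SET1 methyltransferase, and Wdr5, a core subunit of all these complexes, differed by −53.7 ± 398 and −4.67 ± 365 bp (SE). Of the Polycomb subunits 17 of 21 were higher in KO (81.0%, beside 69.0% of all), with a median of 326 bp beside 155 bp. The groups did not overlap for 1 of them (Phc2, with KO higher, beside 6.49% of all), and none passed the test.

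Developmental regulators, the patterning factors whose CpG-rich promoters Polycomb holds ready, had the broadest marks of the lists. Their median breadth was 2967, 4305 and 4474.5 bp in KO and 4308, 3210 and 3411 bp in HxD. Of 64 promoters 42 were higher in KO and 22 lower, with a median difference of 187 bp, close to the 155 bp of all genes, and none passed the test. The median lay between −1.75 and 594 bp over the alternatives in samples and settings. Pax3, a factor of neural crest and muscle, had 3001, 5815 and 6560 bp in KO and 2737, 2498 and 3056 bp in HxD, so KO replicate 1 lay among the HxD samples. Msx1, a homeobox factor of limb and face, had 5195, 6329 and 7068 bp in KO and 5261, 4254 and 3851 bp in HxD. Tbx5 had 604, 0 and 0 bp in KO and 818, 947 and 1820 bp in HxD, the 1 member whose groups did not overlap with KO lower. Wnt1, a signal of the midbrain, had 530, 3211 and 1950 bp in KO and 966, 3211 and 3694 bp in HxD.

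Imprinted genes had 20 of 30 promoters higher in KO (66.7%, beside 69.0% of all) and a median of 242 bp, and none passed the test. The groups did not overlap at 4 of them (Cdkn1c, Snrpn, Inpp5f and Zrsr1), all with KO higher, beside 6.49% of all. Cdkn1c, a maternally expressed inhibitor of the cell cycle, had 4066, 4494 and 5968 bp in KO and 3719, 3328 and 2991 bp in HxD (difference 1497 ± 570.2 bp, SE), and WT, at 4618, 2303 and 5485 bp, spread over both. The start shared by Peg10 and Sgce, both paternally expressed, had 0, 1611 and 3132 bp in KO and 3185, 2366 and 820 bp in HxD. Its difference of −543 bp was 248 bp without KO replicate 1.

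Germline genes whose promoters are held silent by DNA methylation in other tissues had 18 of 25 higher in KO (72%, beside 69.0% of all). Their median was 341 bp, beside 155 bp. Hsf2bp and Tex101 did not overlap with KO higher (2 of 25, beside 6.49% of all), nor did Tex11 with KO lower (1 of 25, beside 0.910%), and none passed the test. Hsf2bp, a partner of BRCA2 in meiosis, had 2943, 3995 and 3807 bp in KO and 2705, 2759 and 2013 bp in HxD. Tex101, a germ cell surface protein, had 2080, 1506 and 2125 bp in KO and 1446, 574 and 596 bp in HxD. Tex11, an X-linked gene of meiotic recombination, had 1208, 498 and 1463 bp in KO and 1767, 1517 and 1772 bp in HxD. Sycp3, of the synaptonemal complex, had 1214, 2303 and 3580 bp in KO and 4033, 2704 and 2240 bp in HxD.

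Of the remaining lists, meiotic genes had 19 of 27 promoters higher in KO (median 311 bp), prospermatogonial and spermatogonial stem cell genes 16 of 25 (158 bp), pluripotency and primordial germ cell genes 14 of 21 (93.7 bp) and housekeeping genes 23 of 35 (349 bp). Prospermatogonia markers had 9 of 11 higher (345 bp) and Sertoli markers 8 of 13 (33.7 bp). Over all tested promoters 69.0% were higher in KO, with a median of 155 bp. Leydig and interstitial markers, with 3 of 11 higher and a median of −120 bp, and endothelial and blood markers, with 3 of 9 higher and −67.3 bp, were the lists with a median below 0. Over the alternatives the medians of these lists changed sign (−390 to 175 bp and −394 to 214 bp), as did those of the Sertoli list (−294 to 290.3 bp), the prospermatogonial list (−177 to 627 bp) and the pluripotency list (−140 to 352 bp), and those of the other lists, the developmental list apart, stayed above 0. No member of any list passed the test. The groups did not overlap, with KO higher, for 4 meiotic, 3 pluripotency and 3 housekeeping genes and for 1 gene each of the prospermatogonial, prospermatogonia marker and Sertoli lists, beside 6.49% of all promoters. With KO lower they did not overlap for 1 gene of these lists, the Leydig and interstitial marker Col1a1, beside 0.910% of all. The Leydig and interstitial median was 1003 bp in KO replicate 1, the sample of least covered length, and 2152 and 2296 bp in the other KO samples, against 2953, 2540 and 1907 bp in HxD. The part of other cells in these values was not tested.

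**Figure D5:**
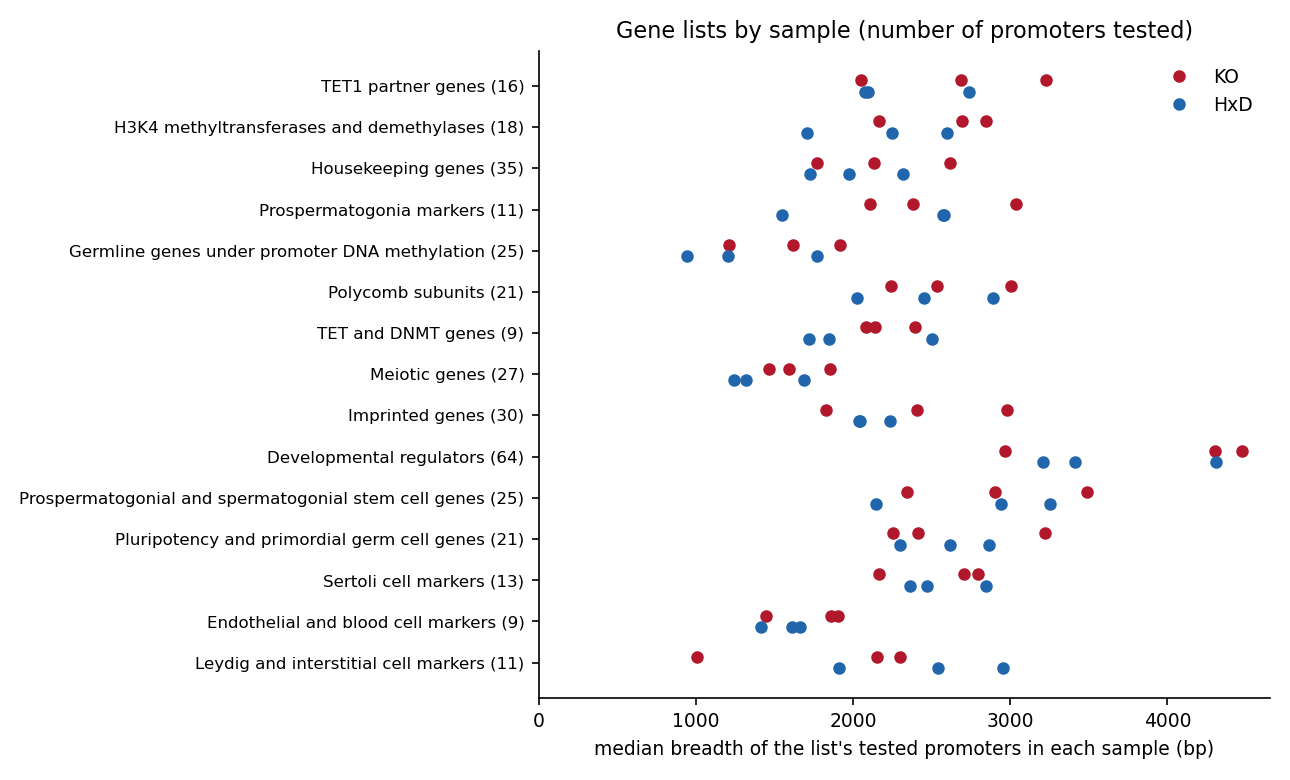
Median breadth (bp within 5 kb of the start) of the tested promoters of each list in every KO (red) and HxD (blue) sample, lists ordered by the median difference with the largest KO excess at the top. The KO and HxD points interleave in every list.

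Away from promoters the mark was also compared region by region. The 6 lists merged into 72947 regions outside promoters, of which 9065 had a peak in all 6 samples. In every KO and no HxD sample there were 303 (0.415%), and in every HxD and no KO sample 527 (0.722%). The excess on the HxD side turned with the full deposited lists, to 472 and 294. Without KO replicates 1, 2 and 3 the 303 became 1257, 806 and 790, and without HxD replicates 1, 2 and 3 it became 766, 717 and 591. The 527 became 889, 1321 and 1210, and 1112, 1644 and 1153. When a region had to be covered over at least 50% of its length to count, the numbers were 363 and 382. Leaving out KO replicate 1 and HxD replicate 2 together gave 2218 and 2353.

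In the lists of equal length the 2 sets differed in what WT showed. Of the 527 regions on the HxD side 171 (32.4%) had a peak in every WT sample and 64 (12.1%) in none. Of the 303 on the KO side 37 (12.2%) had a peak in every WT sample and 95 (31.4%) in none. Over all 72947 regions the shares were 23.9% and 37.0%. Those include the 9065 regions with a peak in all 6 samples, which could not enter either set and had 64.2% and 1.75%. Intergenic regions were 74.6% of the HxD set, 63.0% of the KO set and 66.5% of all. The sets were chosen by KO and HxD samples alone, so WT was not part of the choice. These shares are given for this list length only. When the WT lists were merged in as well, 168 regions were in every HxD and WT and no KO sample. In every KO and WT and no HxD sample there were 39. The excess on the HxD side was absent with the full lists, which differ in length, at 171 and 182. It was present with lists of 30000 (79 and 28) and at equal covered length (150 and 10). Limma tested the covered length of 19442 regions of at least 500 bp on average and called none (0%; smallest adjusted p = 1), with 323 longer and 247 shorter in KO at an unadjusted p under 0.05. That balance turned with the samples, to 889 longer and 274 shorter, 195 and 536, and 176 and 436 when KO replicates 1, 2 and 3 were left out in turn. It was 588 and 79, 338 and 411, and 272 and 135 for HxD replicates 1, 2 and 3, and 247 and 447 at equal covered length.

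The HxD-side region of largest covered length lay inside Prox1, the homeobox factor of lymphatic and lens development (chr1:190160465-190162095, 7420 bp from the nearest coding gene start). It had 1503, 1411 and 1378 bp in HxD and 1631, 1261 and 1283 bp in WT, and 0 bp in all KO samples (difference −1431 ± 319 bp, SE; limma adjusted p = 1). The next lay 11422 bp from a start between Kidins220 and Id2, an inhibitor of bHLH factors (chr12:25082987-25084670), with 1400, 1099 and 1593 bp in HxD and 1385, 1540 and 1369 bp in WT. The third region lay between Nr2e1, a nuclear receptor of neural stem cells, and Ostm1 (chr10:42643370-42644944), with 1514, 1409 and 1056 bp in HxD and 1390, 1575 and 1163 bp in WT. The 4th, between Hmga2 and Msrb3 (chr10:120735620-120737205), had 1532, 1047 and 1277 bp in HxD and 1437, 1380 and 0 bp in WT. In the cut lists the first 3 were present in every HxD and every WT sample and in no KO sample. The cut kept 69.0%, 61.9% and 71.0% of the KO lists and 73.1%, 100% and 79.7% of the HxD lists. Whether weaker peaks below the cut lay at the promoters and regions named for presence was not examined.

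On the KO side the region of largest covered length lay between 4930503E14Rik and Gm8220 (chr14:44247171-44249002), with 1533, 1648 and 1550 bp in KO and 1832, 1736 and 1832 bp in WT, and 0 bp in all HxD samples. A second one on that chromosome, between Gm8126 and Gm8127 (chr14:43274566-43275962), had 1240, 1209 and 1211 bp in KO and 1376, 1164 and 1397 bp in WT. Both lie among predicted genes with near-identical copies, where reads may not be placed with certainty. A region between Rint1 and Tomm7 (chr5:23829970-23832659) had 582, 1794 and 2080 bp in KO and 0, 960 and 1157 bp in WT, and one between Mageb4 and Il1rapl1 (chrX:86374069-86375739) 1445, 967 and 1511 bp and 0, 1103 and 0 bp. All 4 were intergenic, and the pair on chromosome 14 had a peak in every WT sample as well.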

How the data were processed

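H3K4me3 CUT&RUN peaks were compared in 3 KO and 3 HxD samples, with 3 WT samples as a reference. The notes name MACS2 2.1.0, Bowtie2 2.5.0 and the mm10 build, and deepTools 3.5.1, bedtools 2.27.1, SAMtools 1.16.1 and Trim Galore are also named, per the submitters' processing notes. No source used here says whether IgG samples were the controls. The deposited peak lists, 1 per sample, hold a fold enrichment ratio, −log10 p and −log10 q values (p-values and q-values on a log10 scale) and a score per peak, all as the authors made them. Read depth is not in these lists.

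Each list was reduced to its 49624 peaks of highest −log10 q on 19 autosomes, X and Y, so that lists were of equal length, which leaves differences in depth and background in the breadths. Gene starts of 21887 coding genes came from RefSeq tables, 17492 from the promoter table (GRCm38.p6, the assembly of mm10) and 4395 as gene ends, which may miss the used start. Of the genes given with values, Kcnj14, Atp9b, Avpr1b, Spag11a, Defb14, Osbpl1a, Psg16, Tbx5, Pax3, Cdkn1c, Peg10, Sgce and Tex11 rest on a gene end. A region or promoter was marked when at least 1 bp overlapped a peak. Breadths (mean of at least 500 bp) and fold percentiles were tested with limma 3.58.1 (R 4.3.3, trended moderation, Benjamini-Hochberg adjustment over all promoters or regions, threshold 0.05), in the KO and HxD samples alone, after a test on simulated data. Single values were tested with exact permutation tests over the 20 arrangements of 3 against 3.

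Genes named were the 8 of smallest p in each direction among those whose groups did not overlap, the 5 promoters and 4 regions of largest covered length in each presence set, the TET and DNMT genes and the 2 largest differences in each direction of a list, of which some lists are given by counts only. The samples, the 15 lists (345 of 347 symbols matched) and the rules were chosen with earlier results of these data known. Alternatives were the full lists, lists of 30000 peaks, lists of equal covered length, windows of 2 kb, no filter, centring, WT in the fit, a replicate block and leaving out each sample. Ranks by −log10 q, ranks within 5 kb, and leaving out KO replicate 1 with HxD replicate 2 were added after seeing the data.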

Additional observations from a re-analysis of the deposited data

How the results depend on the processing

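Limma called 0 promoters by breadth, 0 by rank and 0 regions under every alternative run, with a smallest adjusted p of 0.441 (regions without a filter). Same-numbered KO and HxD samples had deviations with r of −0.143, −0.105 and −0.141, against 0.0311 to 0.122 for pairs of unlike number. These values come from 3 samples a group and cannot settle whether the numbers pair the samples. The main fits used no pairing. With a replicate block 0 were called, with 234 higher and 37 lower by breadth, 202 and 127 by rank, and 219 and 160 for regions at an unadjusted p under 0.05.

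Of the 197 alternative values of the sample comparisons and counts 19 changed sign and 35 counts moved by over 1.5 times, and the cause was not tested. The other 143 included all the limma counts of calls, which were 0 throughout. The rest of them were differences of the same sign, some of them far from the reported size, or counts within 1.5 times. The KO minus HxD difference in marked promoters was 87.7 with full lists, 413 with lists of 30000, 316 without KO replicate 1 and HxD replicate 2, and −179 to 224 with 1 sample left out. That in retained WT promoter regions was 1.09 points with lists of 30000, 0.926 without those 2 samples and −1.20 to 0.499 with 1 left out. The difference elsewhere was −0.964 Mb at equal covered length and −0.516 to 6.48 Mb with 1 left out, that at promoters −0.183 to 2.76 Mb, and that of CpG-poor breadth −12.0 to 89.6 bp. Likeness within minus between genotypes was 0.00110 at equal covered length, 0.00743 without the 2 samples and −0.0227 to 0.0108 with 1 left out.

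Presence in every KO and no HxD sample, and the reverse, was 19 and 8 promoters with full lists, 30 and 22 with lists of 30000, and 9 and 45 at equal covered length. Without KO replicate 1 and HxD replicate 2 it was 117 and 76, and with 1 sample left out 23 to 58 and 34 to 79. Elsewhere it was 472 and 294, 213 and 309, 86 and 701, 2218 and 2353, and 591 to 1257 and 889 to 1644 regions under the same alternatives.

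Breadth differences that changed sign were those of Tet1 (−38.3 bp in 2 kb windows, −50.5 centred, −202 at equal covered length, −149 to 365 with 1 sample left out), Tet2 (−123.5 to 541), Tet3 (−68.2 centred, −63.0 to 327), Dnmt1 (−40.0 to 590.5) and Uhrf1 (−112 centred, −311 without KO replicate 1 and HxD replicate 2, −311 to 434). Without those 2 samples Sin3a was at 122.5 bp, Mbd3 at 504, Setd1a at 192.5, Wdr5 at 161.5, Wnt1 at 250.5 and Peg10 and Sgce at 369. With 1 left out Sin3a lay at −1842 to 40.8 bp, Mbd3 at −798 to 353, Setd1a at −236 to 279, Wdr5 at −326 to 181, and Peg10 and Sgce at −1318 to 248. Mbd3 was at 86.0 bp in 2 kb windows and 97.7 with lists of 30000, Setd1a at 178 with full lists and Tex11 at 226 with lists of 30000.

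With 3 samples a group and unknown read depth, a typical promoter's 95% interval spanned 817 bp to either side. Equal list length does not equalise depth or background, and presence in all or none of 6 lists depends on where each list ends.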

Other observations

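The following patterns were chosen after their values were seen and have no test. On chromosome X 373 of 476 tested promoters were broader in KO (78.4%, beside 69.0% of all), with a median difference of 284 bp beside 155 bp. The chromosome X median was 1027.5, 1489 and 1882.5 bp in KO, 1458.5, 1261 and 894.5 bp in HxD, and 0, 0 and 273 bp in WT, against 1523, 1597 and 1876 bp in WT over all tested promoters. The filter on low values and the choice of gene starts used KO and HxD samples and not WT. KO and HxD overlapped, and the median difference was 511, 298 and 74.1 bp without KO replicates 1, 2 and 3, and 428, 260.2 and 109 bp without HxD replicates 1, 2 and 3. It was 276 bp with full lists, 499.5 bp without KO replicate 1 and HxD replicate 2, and 116 bp after centring. Nxf2, Gla, Hnrnph2, Rbbp7 and Kdm5c are on that chromosome. Its share of the covered length was 1.92%, 1.88% and 2.36% in KO and 1.82%, 1.91% and 1.52% in HxD.

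Regions inside genes numbered 11823, 11458 and 12225 in KO and 11163, 11003 and 10021 in HxD, every KO above every HxD sample. With full lists they numbered 20165, 20539 and 19477 in KO and 16044, 10970 and 13006 in HxD, again apart. With lists of 30000 they numbered 5876, 6108 and 6219 in KO and 6019, 5837 and 5644 in HxD, and at equal covered length 14760, 6117 and 4907 and 5873, 11086 and 9125, so the groups overlapped under both of these settings.

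Over all 9 samples 175 regions were in every HxD and WT sample and no KO sample (7 at promoters, 36 in gene bodies, 132 intergenic). The count in every KO and WT sample and no HxD sample was 40 (1, 12 and 27). Away from promoters the counts were 168 and 39, with lists of 30000 they were 79 and 28, and at equal covered length 150 and 10. With the full lists, which differ in length, they were 171 and 182.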
